A study of Oryza longistaminata with 12 samples.

Results

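Alcohol dehydrogenase transcripts were followed in the roots of *Oryza longistaminata*, a wild rice that spreads by rhizomes, through 3 gene models of 29335 in the count table. The models are OL11T000555, described as Alcohol dehydrogenase 1, and OL11T000556 and unmappedContigsT000545, both described as alcohol dehydrogenase. They were chosen because the study lists them, under the same numbers, among the genes that were higher in +N split than in +N roots. Measured values of those 2 groups therefore chose them, and the contrast between these groups is described here without a test. All 3 models passed the filter on low counts, which left 25005 gene models for testing.

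A ramet pair consists of 2 young plants that grew from adjacent nodes of 1 rhizome and remained joined by it. Pairs of the accession IRGC10404 were excised from plants grown hydroponically with 1 mM NH4Cl, and root RNA was sequenced after 24 h of treatment in 4 groups of 3 libraries. In +N pairs both roots stood in 2.5 mM NH4Cl, and in −N pairs both stood in 0 mM. In split pairs, the root in 2.5 mM is called +N split, and the connected root in 0 mM is called −N split. All groups thus shared the excision, the rhizome connection and the hydroponic culture, and they differed in the ammonium given to the root sampled and to its partner. For −N replicate 1 the labels disagree: its title gives −N while its treatment text describes a split pair. The title was followed, and values without this library are given beside the main results that use it.

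Alcohol dehydrogenase reduces acetaldehyde to ethanol and regenerates NAD+ in the last step of ethanol fermentation. The acetaldehyde comes from pyruvate, through pyruvate decarboxylase. In rice roots, transcripts of both enzymes are known to rise when oxygen is short, and plant cysteine oxidases take part in oxygen sensing, as worked out in Arabidopsis. Neither oxygen nor ethanol was measured in these samples.

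Between 39071838 and 56252511 reads were counted per library. The green-tissue list held 20 chlorophyll-binding, photosystem and Rubisco small chain genes, which in roots would mark shoot or greening tissue. All 20 were measured, and their summed level was 2279 to 2951 CPM (read counts per library size, scaled with TMM factors) in +N, 1409 to 3468 in +N split, 616 to 2016 in −N split and 1409 to 2066 in −N. The Rubisco small chain gene OL02T000345 lay between 1.35 and 4.89 CPM in −N split and between 21.6 and 42.5 CPM elsewhere. Of the root genes, root cap protein 2 (OL01T004499) lay between 0.221 and 2.91 CPM, and the root isozyme of ferredoxin-NADP reductase (OL03T003355) between 51.4 and 87.7 CPM. Because whole roots were sampled, fewer cells that express a gene and less RNA per cell cannot be told apart.

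OL11T000555 reached 709.6, 818 and 567 CPM in the +N libraries and 1337, 1643 and 1905 CPM in +N split. In −N split it was at 61.9, 62.1 and 98.0 CPM, and in −N at 493, 300.3 and 425 CPM. The order of the levels was thus +N split, +N, −N and −N split, and no 2 groups overlapped.

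OL11T000556 was counted at 1527, 2058 and 1493 CPM in +N and at 3853, 4069 and 5399 CPM in +N split. Its levels were 527, 733 and 958 CPM in −N split and 2113, 1756 and 2467 CPM in −N. The +N split libraries were the highest and the −N split libraries the lowest, while −N and +N overlapped.

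For unmappedContigsT000545, whose identifier places it outside the numbered chromosomes, the +N libraries gave 2369, 2981 and 2238 CPM and the +N split libraries 5245, 5554 and 7483 CPM. The −N split libraries gave 768, 969 and 1176 CPM, and the −N libraries 2608, 2099.5 and 2863 CPM. Its order resembled that of OL11T000556, with −N and +N overlapping between the +N split and −N split extremes.

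**Figure D1:**
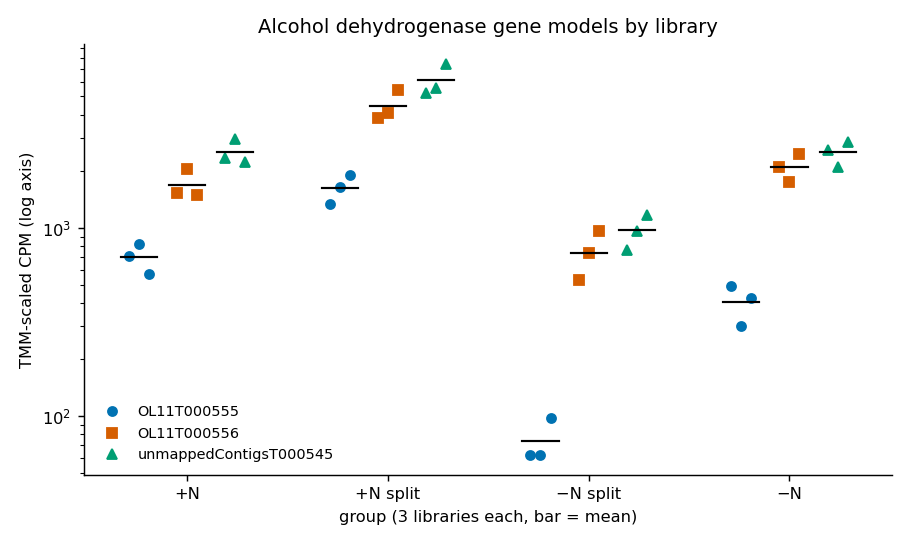
TMM-scaled CPM of the 3 alcohol dehydrogenase gene models (log axis) in each library of the 4 groups, with points for libraries and bars for the means of 3. The −N split libraries are the lowest and the +N split libraries the highest for each model. Transcript lengths were not available, so heights are compared within a model only.

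Within groups, the models shared their extremes in part. Replicate 3 of +N split and replicate 3 of −N split were the highest of their groups for all 3 models. Replicate 2 was the highest of +N and the lowest of −N for all 3. The lowest count of any member in any library was 2578 reads, for which counting error is 1.97%, so the spread between replicates was much wider than the counting error.

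The 3 models together took 0.425% to 0.577% of the counted reads in +N, 1.01% to 1.36% in +N split, 0.145% to 0.229% in −N split and 0.434% to 0.585% in −N. Their summed level was 4920.3 ± 826 CPM (SD, n = 3) in +N, 12163 ± 2310.2 in +N split, 1784 ± 438 in −N split and 5042 ± 814 in −N. The sum in −N was 1.02 times that in +N, whereas the sum in +N split was 6.82 times that in −N split. Roots with the same supply as their partner thus had near-equal summed levels at 2.5 and 0 mM, and the 2 sides of split pairs lay above and below them. That +N split lay above +N was fixed by the choice of the models. The choice also favoured low +N values, which shifts the ratio of −N to +N upward. With −N replicate 1 left out, the other 2 −N libraries summed to 4152 and 5755 CPM. The sum was given no test, since its members were chosen.

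The comparison of −N split with −N asks what the supply of the partner changes in a deprived root. It shares no library with the contrast that chose the models, but the models were chosen with earlier results of these data known. The −N split roots were also the connected side of split pairs, whose other side, +N split, entered that contrast. All 3 models were lower when the partner was supplied, and for each of them every −N split library lay below every −N library. OL11T000555 fell to 74.0 ± 20.8 CPM from 406 ± 97.7 CPM (SD, n = 3 each), a log2 fold change of −2.46 ± 0.233 (SE) or 5.49-fold, for which the quasi-likelihood test of edgeR, adjusted by Benjamini-Hochberg over all genes tested, gave an adjusted p of 0.000174. OL11T000556 fell to 739.6 ± 215 from 2112 ± 356 CPM, a log2 fold change of −1.51 ± 0.219 (2.86-fold, adjusted p = 0.00225 in the same edgeR test). unmappedContigsT000545 fell to 971 ± 204 from 2524 ± 389 CPM, with a log2 fold change of −1.38 ± 0.189 (2.60-fold, edgeR adjusted p = 0.00161). Of all genes tested, 2.74% were called lower in this comparison and 11.6% were lower without overlap of the groups, and the median log2 fold change was 0.02. An exact permutation test of 3 against 3 libraries cannot go below p = 0.1, so single values were not tested in that way.

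Without −N replicate 1, whose labels conflict, the log2 fold changes were −2.29, −1.51 and −1.35 and the edgeR adjusted p values 0.000556, 0.0104 and 0.00814, in the order above. The Rubisco small chain gene also fell by 3.29 on the log2 scale in −N split (edgeR adjusted p = 0.000493), and was the only gene of the 20 on the green-tissue list that was called. The median over that list was −0.41, and only OL05T002026 (0.23) and OL09T000991 (0.06) had positive values. OL01T002860 had −1.59 without overlap of the groups but was not called (edgeR adjusted p = 0.0684). That list came from the tables of genes lower in −N or in −N split, and its part in the result was not tested. Root cap protein 2 (OL01T004499) moved the same way, from 2.03 ± 1.17 CPM in −N to 0.442 ± 0.191 in −N split (SD, n = 3; log2 fold change −2.21 ± 0.515, edgeR adjusted p = 0.0332), a call lost without −N replicate 1 (0.108). The root isozyme of ferredoxin-NADP reductase, OL03T003355, had 0.29 and was not called. The part of these root genes was not tested either. In −N split replicate 1, the green-tissue sum of 2016 CPM lay within the −N range, but OL02T000345 was at 4.89 CPM against 21.6 to 30 CPM in −N. Root cap protein 2 was at 0.221 CPM in this library, its lowest of all libraries. OL11T000555, at 61.9 CPM, OL11T000556, at 527 CPM, and unmappedContigsT000545, at 768 CPM, were also at their lowest there. How these markers and the models are related in this library was not tested.

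The comparison of −N with +N asks what the removal of ammonium from the whole pair changes. It uses the +N libraries, which also entered the choice of the models, and a choice for low values there shifts these fold changes upward. OL11T000555 was lower in −N, with a log2 fold change of −0.78 ± 0.222 (SE) and an edgeR adjusted p of 0.0275, without overlap of the groups. Of all genes tested, 10.3% were called lower, 8.84% were called higher and 18.3% were lower without overlap. The call was lost without +N replicate 1 (edgeR adjusted p = 0.0556), +N replicate 2 (0.0986), −N replicate 2 (0.10) or −N replicate 3 (0.0580), and it held without −N replicate 1 (0.0268). OL11T000556 had a log2 fold change of 0.32 ± 0.214 (edgeR adjusted p = 0.345) and unmappedContigsT000545 one of 0.00 ± 0.185 (adjusted p = 0.993), and neither was called. Without −N replicate 1 these 2 values were 0.32 and −0.03, again not called (edgeR adjusted p = 0.456 and 0.956). All 20 green-tissue genes had negative log2 fold changes here (median −0.56), of which 1, OL05T002026, was called (−0.48, edgeR adjusted p = 0.00762). Of the root genes, OL03T003355 was called lower (−0.56, edgeR adjusted p = 0.000939), and OL01T004499, at 0.24, was not called. The green-tissue list came in part from this contrast, and the part of these markers was not tested.

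The comparison of −N split with +N, in which a deprived root with a supplied partner is set against full supply, also uses the +N libraries of the choice. For each of the 3 models, every −N split library lay below every +N library. OL11T000555 was 9.43-fold lower in −N split (log2 fold change −3.24 ± 0.241, edgeR adjusted p = 5.73e-06). OL11T000556 was 2.29-fold lower (−1.19 ± 0.217, edgeR adjusted p = 0.00228) and unmappedContigsT000545 2.61-fold lower (−1.38 ± 0.189, edgeR adjusted p = 0.000355). Of all genes tested, 12.2% were called lower here and 19.4% were lower without overlap. All 20 green-tissue genes had negative log2 fold changes (median −1.10), of which 2 were called, where 12.2% of all genes tested were called lower. These were OL02T000345 (−3.72, edgeR adjusted p = 4.87e-05) and the chlorophyll-binding gene OL01T002860 (−1.84, 0.011). Both root genes were called lower too, OL01T004499 at −1.97 (edgeR adjusted p = 0.0167) and OL03T003355 at −0.27 (0.0403). These lists came in part from this contrast, so the choice of the green-tissue genes favoured negative values. The part of these markers in the result was not tested.

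The contrast between +N split and +N, on which the models were chosen, is given as a description. OL11T000555 was 2.33-fold higher in +N split (log2 fold change 1.22 ± 0.223, SE), OL11T000556 2.62-fold (1.39 ± 0.218) and unmappedContigsT000545 2.41-fold (1.27 ± 0.188). Without overlap, 8.71% of the genes tested were higher in this contrast, from which nothing is read, because the choice fixed the direction. Without +N split replicate 3, the highest library for all 3 models, the log2 values were 1.10, 1.24 and 1.10.

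Between the 2 sides of split pairs, +N split exceeded −N split by 22.0-fold for OL11T000555 (log2 fold change 4.46 ± 0.255), by 6.0-fold for OL11T000556 (2.59 ± 0.227) and by 6.28-fold for unmappedContigsT000545 (2.65 ± 0.197). Since the choice favoured high +N split values, no test was made. The groups did not overlap for any of the 3 models, and 22.0% of the genes tested were higher without overlap in this contrast.

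**Figure D2:**
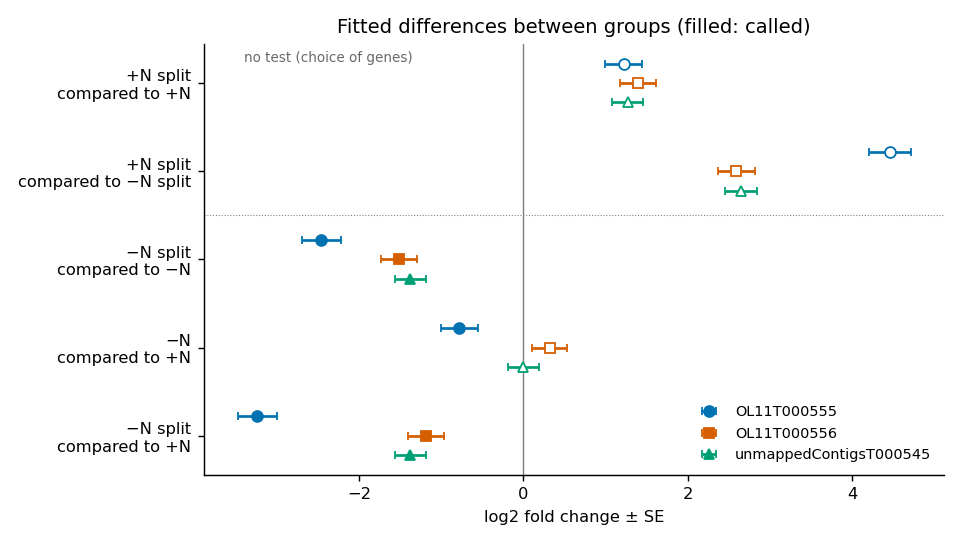
Fitted log2 fold changes with standard errors for the 3 models in 5 comparisons; filled symbols are called at an adjusted p under 0.05, and the 2 comparisons above the dotted line were given no test. In −N split compared to −N all 3 models are called lower, and in −N compared to +N only OL11T000555 is called, at −0.78.

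A deprived partner went with higher levels of the models in deprived roots, while in supplied roots the choice of the models fixed that direction. In supplied roots the difference was the 1.22, 1.39 and 1.27 given above, and in deprived roots, read in the same direction, it was 2.46 for OL11T000555, 1.51 for OL11T000556 and 1.38 for unmappedContigsT000545 on the log2 scale. The difference between these 2 partner effects, supplied minus deprived roots, was −1.23 ± 0.313 (SE) for OL11T000555. It was −0.12 ± 0.303 for OL11T000556 and −0.11 ± 0.262 for unmappedContigsT000545. Without −N replicate 1 they were −1.07, −0.12 and −0.09. These differences rest partly on the contrast that chose the models and were not tested.

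OL11T000555 did not keep a constant proportion to OL11T000556, the model with the next number. The ratio of their counts within a library was 0.414 ± 0.0448 (SD, n = 3) in +N, 0.368 ± 0.0312 in +N split, 0.192 ± 0.0355 in −N and 0.101 ± 0.0164 in −N split. The ratios ranged from 0.380 to 0.465 in +N and from 0.347 to 0.404 in +N split, which overlap. They ranged from 0.171 to 0.233 in −N and from 0.0847 to 0.117 in −N split, below both supplied groups and apart from each other. OL11T000555 thus made up a smaller part of the counts in deprived roots, and the smallest where the partner was supplied. The −N ratios other than that of replicate 1 were 0.171 and 0.172. Over the 12 libraries the ratio spanned 5.48-fold.

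OL11T000556 and unmappedContigsT000545 kept closer proportions, with a ratio between 0.645 and 0.862 in all libraries, a span of 1.34-fold. The count of unmappedContigsT000545 was also close to the sum of the counts of the other 2 models. It was 1.04 to 1.09 times that sum in +N, 0.972 to 1.02 times in +N split, 0.990 to 1.02 times in −N and 1.11 to 1.30 times in −N split. The setting for reads that map to several places is not given in the sources used here, and near-identical copies can split or lose reads in counting. Whether the 3 models share reads was not tested, so their separate levels are uncertain. If reads were counted on more than 1 model, the summed levels and shares given above count them more than once.

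**Figure D3:**
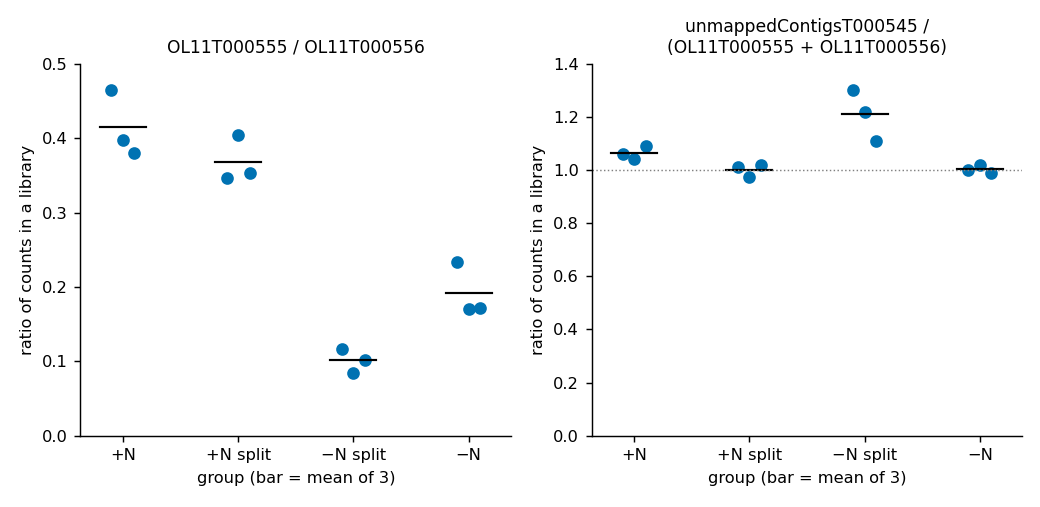
Ratios of counts within each library by group, with bars for the means of 3: OL11T000555 over OL11T000556 on the left and unmappedContigsT000545 over the sum of the other 2 models on the right. The left ratio is 0.347 or more in supplied roots and 0.233 or less in deprived roots, and the right ratio exceeds 1.10 only in −N split.

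Gene models with numbers within 5 of the OL11 pair were read beside it, and whether they lie near it in the genome was not checked. OL11T000553 had no reads and OL11T000554 at most 1 in a library, and neither was tested. OL11T000550, OL11T000551, OL11T000552, OL11T000557 and OL11T000558 were tested, and none of them was called in −N split compared to −N, with log2 fold changes between −1.87 and 0.30. The largest of these values in size, −1.87 ± 0.783 (SE), belonged to OL11T000552, which had at most 20 reads in any library. OL11T000557 was at 246 ± 34.2 CPM in +N, 365 ± 127 in +N split, 166 ± 24.2 in −N split and 159.8 ± 8.06 in −N (SD, n = 3), so its 2 deprived groups overlapped, unlike those of the members.

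Genes of ethanol fermentation and of responses to low oxygen were read beside the models, as lists taken by wording from the gene descriptions of the study's tables. Several of these tables compare deprived roots with +N and so use libraries of the comparison of −N split with −N, of which they are not independent. Of 25 listed genes, all tested, 10 were called lower in −N split than in −N, 1 was called higher and 14 were not called, where 2.74% and 1.27% of all genes tested were lower and higher. The median log2 fold change was −0.59. Without −N replicate 1, 7 were called lower and 0 higher. As far as the tables were read, 4 of the 25 came from the table of genes higher in +N split alone. Of these 4, 3 were called lower in −N split than in −N. In −N split compared to +N, the contrast of another of these tables, 3 of the 4 were also called lower, where 12.2% of all genes tested were. Their choice may therefore not be independent of the −N split libraries.

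Of the 2 pyruvate decarboxylase genes, which supply the acetaldehyde that alcohol dehydrogenase reduces, 1 was called lower. OL05T001771 was at 71.6, 302 and 319 CPM in −N split and at 2210.1, 1333 and 2177 CPM in −N, a log2 fold change of −3.05 ± 0.449 (edgeR adjusted p = 0.00252). Its levels were 876, 1477 and 1027 CPM in +N and 4127, 3981 and 5174 CPM in +N split, and since it is in the table that chose the models, its higher level in +N split than in +N is a description. Leaving out −N replicate 1 gave −2.93 for the deprived roots (edgeR adjusted p = 0.011). OL03T001290 had a log2 fold change of −0.57 ± 0.172 (edgeR adjusted p = 0.0974) and was not called, although its −N split libraries (348 to 580.3 CPM) lay below its −N libraries (633 to 783 CPM).

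The 9 low-oxygen genes comprised 5 plant cysteine oxidase or DUF1637 genes, 3 genes described as hypoxia induced and 1 haemoglobin gene. Of these 9, 7 were called lower in −N split than in −N, 0 higher and 2 were not called, with a median log2 fold change of −1.68. Of all genes tested, 2.74% were called lower. All 9 were also called lower in −N split compared to +N, a contrast whose table the lists drew on, so low −N split values were favoured by the choice. OL01T000575, a DUF1637 gene, fell to between 27.9 and 36.8 CPM from between 133 and 187 CPM (log2 fold change −2.37 ± 0.148, edgeR adjusted p = 7.79e-06). OL09T001188, described as Plant cysteine oxidase 2, had a log2 fold change of −2.30 ± 0.165 (edgeR adjusted p = 2.76e-05). OL12T000084, described as hypoxia induced, was at 85.2, 96.6 and 87.1 CPM in −N split and at 413, 203 and 244 CPM in −N (−1.68 ± 0.231, edgeR adjusted p = 0.00169). The haemoglobin gene OL03T000859 had a log2 fold change of −1.46 ± 0.268 (edgeR adjusted p = 0.00952). The genes not called were OL02T002045 and OL07T002496, both described as hypoxia induced, at 0.13 and −0.60. Without −N replicate 1, 6 of the 9 were called lower, and the log2 fold change of OL12T000084, for which that library was the highest of −N, was −1.32 (edgeR adjusted p = 0.00213). OL05T002624, a DUF1637 gene, lost its call (−0.94 with the library, −0.89 and adjusted p = 0.0723 without it).

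In −N compared to +N, where OL11T000556 and unmappedContigsT000545 were not called, 3 of the 9 low-oxygen genes were called lower and 3 higher, or 3 and 1 without −N replicate 1. Of all genes tested, 10.3% were called lower and 8.84% higher in this comparison. Most of the genes so called were listed from the tables of this same contrast, and their values are a description. The log2 fold change was 0.57 for the DUF1637 gene OL01T000575 and −1.55 for the haemoglobin gene OL03T000859.

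Among the 7 aldehyde dehydrogenase genes, which oxidise aldehydes to acids, 1 was called lower and 1 higher in −N split than in −N. These were OL02T002964, with a log2 fold change of −1.09, and OL01T002075, with 0.69, and neither was called without −N replicate 1. The count of 1 higher gene among the 25 became 0 without −N split replicate 2, −N split replicate 3, −N replicate 1 or −N replicate 3, and 2 without +N replicate 1 or +N replicate 2. Of the 3 genes for sucrose-cleaving enzymes, which feed sugar into glycolysis, OL03T001901 was called lower (−0.59 ± 0.151, edgeR adjusted p = 0.0475) and the other 2 were not called. OL03T001901 was not called without −N replicate 1 (edgeR adjusted p = 0.185). None of the 2 alternative oxidase and the 2 alanine aminotransferase genes was called. Their log2 fold changes were −0.47 and 1.44 for the oxidases, which pass electrons to oxygen without the cytochrome path, and −0.44 and −0.43 for the aminotransferases, which make alanine from pyruvate.

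The 11 other genes described as alcohol or mannitol dehydrogenases are given beside the models. In −N split compared to −N, 1 was called lower, 0 higher and 10 were not called, with a median log2 fold change of 0.19. The gene called was OL04T002349, described as a probable mannitol dehydrogenase, at 0.486, 0.579 and 0.458 CPM in −N split and 3.97, 0.783 and 3.82 CPM in −N (log2 fold change −2.47 ± 0.551, edgeR adjusted p = 0.026). This call was lost, leaving 0 of 11, without any 1 of the 3 −N split libraries, without −N replicate 1 or without −N replicate 3. OL04T002349 also stood at 1.33 to 1.92 CPM in +N and 5.70 to 12.8 CPM in +N split. It is the other gene of this wording in the table that chose the models, so its +N split level is a description. In −N compared to +N, 9 of the 11 were called lower, or 6 without −N replicate 1, where 10.3% of all genes tested were called lower. Most of the 11 came from the table of genes lower in −N, so that count was largely fixed by the choice. A choice for low −N values also shifts the log2 fold changes of −N split compared to −N upward for these genes.

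**Figure D4:**
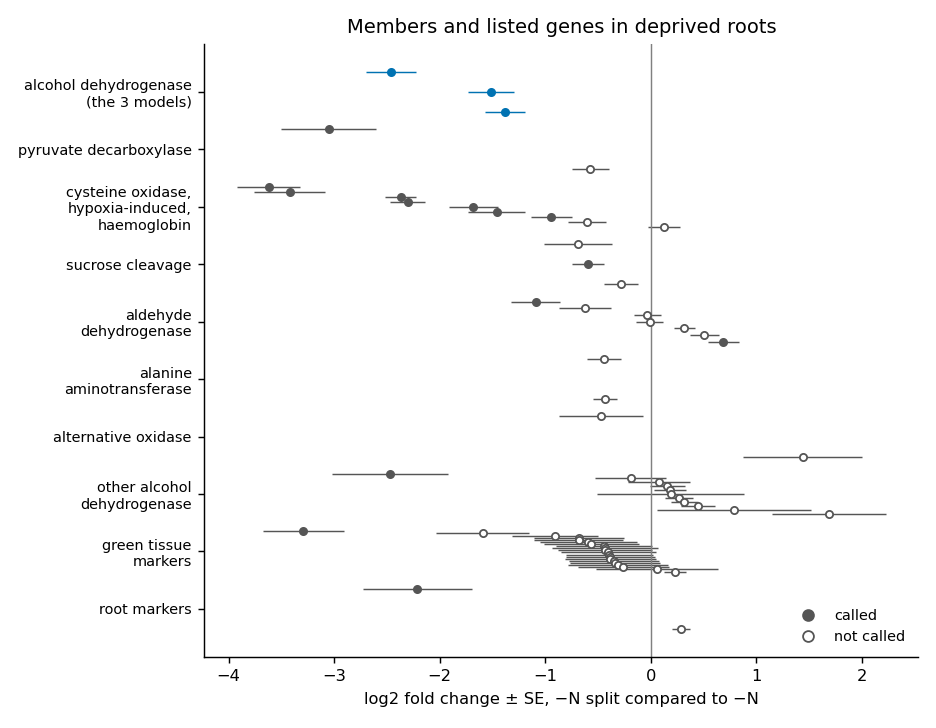
Fitted log2 fold changes with standard errors, −N split compared to −N, for the 3 alcohol dehydrogenase models, the listed genes of fermentation and low oxygen, the 11 other alcohol dehydrogenase genes and the tissue markers; filled points are called at an adjusted p under 0.05. The 3 models, 7 of 9 low-oxygen genes and 1 of the 11 other alcohol dehydrogenase genes are called lower. The lists were drawn in part on libraries of this comparison, so their counts are not set against each other.

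The genes nearest to the models in profile were sought over all 12 libraries, by the root mean square difference between the centred log2 CPM of a gene and the mean centred profile of the 3 models. The measure has a median of 1.21 and a first percentile of 0.660 over the genes tested. The 6 nearest genes other than members were the phosphofructokinase OL05T002151 (OlPFK5, 0.244), which acts in glycolysis, the DUF581 gene OL06T000133 (0.269), the hydroxycinnamoyl transferase OL07T002210 (0.279), the 2OG-Fe(II) oxygenase OL05T002409 (0.282) and the nitrate reductases OL08T001450 (0.291) and OL08T001452 (0.294). Among the members, unmappedContigsT000545 lay at 0.242, OL11T000556 at 0.303 and OL11T000555 at 0.532.

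OL05T002151 was at 209 ± 25.2 CPM in +N, 467 ± 79.4 in +N split, 75.3 ± 15.9 in −N split and 179.9 ± 37.6 in −N (SD, n = 3). OL06T000133 was at 244 ± 39.7, 527 ± 45.2, 42.3 ± 3.66 and 214 ± 51.0 CPM in the same groups. Both shared the order of the models at its ends, with +N split highest, −N split lowest, and +N and −N overlapping between them. These genes were selected on all 12 libraries, so their differences are a description. The hydroxycinnamoyl transferase OL07T002210 was the least abundant of the 6, at 0.229 to 2.38 CPM in the group means.

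**Figure D5:**
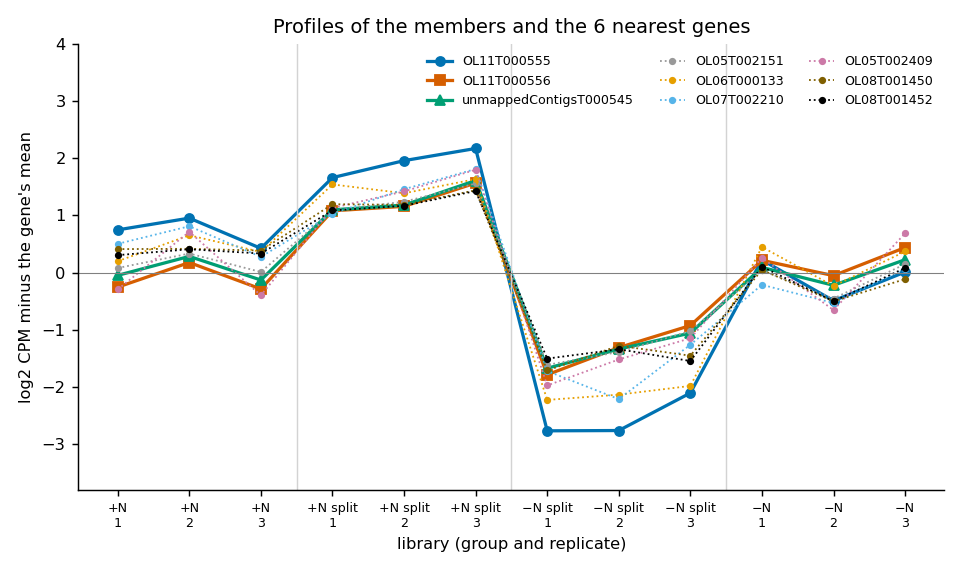
Log2 CPM minus the mean of the gene over the 12 libraries for the 3 models (solid lines) and the 6 genes nearest to their mean profile (dotted lines), by library; the lines join points of 1 gene and show no order of replicates. All are highest in +N split and lowest in −N split, and OL11T000555 shows the widest span of the models.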

How the data were processed

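The authors made mRNA libraries from roots, mapped the reads with HISAT2 and counted them per gene model with featureCounts (bcl2fastq and edgeR are also named in the submitters' processing notes). How strand, read pairs and reads with several positions were handled is not given in the sources used here. The authors deposited unnormalized counts and log2 CPM; the deposited log2 values differ by at most 4.99e-09 from those edgeR computes without TMM scaling at prior count 2, so only counts entered the tests.

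edgeR 4.0.16 was run in R 4.3.3. Low genes were removed by filterByExpr (minimum count 10, minimum total 15), libraries were scaled by TMM (factors 0.922 to 1.07), and a mean per group was fitted over 12 libraries with glmQLFit (8 residual degrees of freedom). Contrasts were tested with glmQLFTest, two-sided, with Benjamini-Hochberg adjustment over 25005 genes and a threshold of 0.05. The code was tested on simulated counts. Replicates differed by more than sampling noise (chi-square per gene at least 22.7), so each library counts as 1 sample. According to the methods, replicates came from separate ramet pairs.

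The members and lists were chosen with earlier results of these data known. Named genes are the members, the listed genes, gene models numbered within 5 of the OL11 pair and the 6 nearest in profile. Alternatives were DESeq2 1.42.0 size factors, upper-quartile factors, the DESeq2 Wald test, edgeR's quasi-likelihood and exact tests on the 6 libraries compared, no filter, a minimum of 1 CPM in 3 libraries, a block for the replicate number, and each library left out. No genome was used here, so no sequence or position is printed.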

Additional observations from a re-analysis of the deposited data

How the results depend on the processing

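Over 20 alternatives, 300 log2 fold changes of the 3 models were recomputed, and 296 kept their side of the threshold or, where no test was made, stayed within the replicate spread. No called value changed sign, while that of unmappedContigsT000545 in −N compared to +N, never called, ran from −0.10 to 0.14. The other 4 were the losses of the call of OL11T000555 in −N compared to +N, where leave-one-out log2 fold changes ran from −0.94 to −0.60. In −N split compared to −N, the adjusted p over the 20 alternatives reached at most 0.00239 for OL11T000555, 0.0148 for OL11T000556 and 0.0117 for unmappedContigsT000545, and in −N split compared to +N at most 0.000135, 0.0106 and 0.00237. In −N compared to +N it ranged from 0.00318 to 0.10, from 0.193 to 0.652 and from 0.722 to 1.

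Of the 25 fermentation and low-oxygen genes, 7 to 14 were called lower in −N split compared to −N. The number called higher was 3 with the DESeq2 Wald test, 2 with either edgeR test on 6 libraries and 0 to 2 in leave-one-out fits. Of the 11 other alcohol dehydrogenase genes, 0 were called lower on 6 libraries with the quasi-likelihood test and 0 to 1 in leave-one-out fits, and 2 were called higher with the exact test and 0 to 1 in leave-one-out fits.

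Over all genes, the 684 lower and 317 higher calls of −N split compared to −N became 1192 and 669 with the DESeq2 Wald test and 1048 and 588 with the exact test. Leaving out replicate 2 of −N split gave 399 and 122, its replicate 3 gave 420 and 204, −N replicate 1 gave 370 and 97, and −N replicate 3 gave 408 and 157, so the share called beside which the models are read is uncertain. The 2758 higher calls of −N split compared to +N became 1795 without +N replicate 3. Counting depth limits the models little, and 3 libraries per group limit them more.

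The labels do not say whether equal replicate numbers mark the same ramet pair, and of different groups only +N split and −N split can share a pair. Same-numbered libraries of different groups correlated in their deviations at −0.159 to 0.233 over 18 pairs, with 5 above 0.1, and the own number correlated best in 8 of 18, among them all 3 of +N with +N split (0.187, 0.0704 and 0.176). Between +N split and −N split, the values were −0.13, 0.104 and 0.079 for replicates 1, 2 and 3. The own number correlated best there for replicate 2 only. With 3 libraries per group, these correlations cannot decide whether equal numbers mark a pair. Because the labels give no pairing, the numbers were not used as pairs. The 2 sides of split pairs were compared as unpaired libraries, although they may include connected roots of the same pairs. With the replicate block, the log2 fold changes in −N split compared to −N were −2.47, −1.54 and −1.39, the mannitol dehydrogenase call was lost (0 of 11 other alcohol dehydrogenase genes lower), and no call of the models changed.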
